A study of Mus musculus with 3 samples.

Results

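The genes described here encode the 3 phosphofructokinases (Pfkl, Pfkm and Pfkp) and the 4 bifunctional PFKFB enzymes that regulate them (Pfkfb1, Pfkfb2, Pfkfb3 and Pfkfb4). They are 7 of 21775 protein-coding genes, taken by name for their function, and all 7 were found in the RefSeq annotation. Every peak with its centre inside one of them or within 50 kb of either end was collected, which gave 10 of the 17289 peaks of the list. The study profiled loci bound by HIF1α, the subunit of the hypoxia-inducible factor that oxygen destabilises, by chromatin immunoprecipitation and sequencing. Both HIF1α pulldowns (n = 2) and the input (n = 1, labelled as having no antibody, with a protocol text shared by all libraries) came from dissected hearts of wild-type Black-Swiss embryos at E12.5, so all 3 libraries share strain, genotype and stage. Whole hearts hold several cell types, and in which of them a locus was bound cannot be told apart. The labels do not say whether the pulldowns came from separate pools of embryos.

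The data analysed here are the authors' table of merged peaks, in coordinates of mm10. Each peak has a whole-number score given by the authors and the number of calls merged into it. There are 1989 peaks of 2 calls (11.5%) and 15300 of 1 call, and the median score is 4 for peaks of 2 calls and 2 for peaks of 1 call. No value per library is in this list, so no level below has a replicate error, and the read depth is unknown. A peak of 2 calls is read as a place called in both pulldowns, which is the nearest the list comes to a replicate check. What the score is relative to is not stated, so it serves only to rank peaks within the list. Gene expression was not measured, and the tissue label could not be checked against marker genes.

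Phosphofructokinase catalyses the committed step of glycolysis, and its 3 isoforms are named after liver (Pfkl), muscle (Pfkm) and platelets (Pfkp). Each PFKFB enzyme carries a kinase and a phosphatase in the same chain. The kinase makes, and the phosphatase removes, a sugar bisphosphate that is a strong allosteric activator of phosphofructokinase. The Pfkfb1 product is known from liver and skeletal muscle, that of Pfkfb2 from heart and that of Pfkfb4 from testis, while the Pfkfb3 product is widespread and strongly biased towards the kinase. PFKFB3 and PFKFB4 are known in human cells as genes that low oxygen induces through HIF.

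Sequences before some of the listed starts of these genes are shown first. Each line gives the 250 bases before a start listed by RefSeq (GRCm38.p6, the build of mm10), 5′ to 3′ on the strand of the gene. Pfkl, Pfkp and the third start of Pfkm are the starts closest to their gene's peak of 2 calls, as is the inner start of Pfkfb3. The outer start of Pfkfb3, far from that peak, and those of Pfkfb2 and Pfkfb4, which had no peak in their windows, are set beside them. Of the 3 listed starts of Pfkfb2, the one with most matches of the motif described next is printed. Capitals mark the letters ACGTG or GCGTG, the core of the HIF binding motif, read on either strand (as CACGT or CACGC where the match is on the other strand). A run of CACGTG holds ACGTG on both strands and counts as 2 matches that overlap.
Pfkl (chr10:78009808-78010057, minus strand): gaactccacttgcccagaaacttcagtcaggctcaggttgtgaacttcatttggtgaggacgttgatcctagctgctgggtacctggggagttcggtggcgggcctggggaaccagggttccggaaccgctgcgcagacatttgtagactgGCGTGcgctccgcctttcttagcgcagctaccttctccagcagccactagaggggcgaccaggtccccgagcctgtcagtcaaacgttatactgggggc
Pfkm, the third start (chr15:98108306-98108555, plus strand): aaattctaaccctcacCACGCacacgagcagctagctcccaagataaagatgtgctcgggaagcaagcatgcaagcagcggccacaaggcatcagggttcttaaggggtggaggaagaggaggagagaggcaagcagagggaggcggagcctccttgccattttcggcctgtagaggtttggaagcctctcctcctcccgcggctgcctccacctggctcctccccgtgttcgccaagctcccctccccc
Pfkp (chr13:6648772-6649021, minus strand): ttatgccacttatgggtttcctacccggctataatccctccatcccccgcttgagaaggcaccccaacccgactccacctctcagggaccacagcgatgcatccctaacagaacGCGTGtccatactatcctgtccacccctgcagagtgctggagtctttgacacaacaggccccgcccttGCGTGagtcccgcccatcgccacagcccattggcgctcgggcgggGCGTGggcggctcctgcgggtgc
Pfkfb3, inner start (chr2:11502091-11502340, minus strand): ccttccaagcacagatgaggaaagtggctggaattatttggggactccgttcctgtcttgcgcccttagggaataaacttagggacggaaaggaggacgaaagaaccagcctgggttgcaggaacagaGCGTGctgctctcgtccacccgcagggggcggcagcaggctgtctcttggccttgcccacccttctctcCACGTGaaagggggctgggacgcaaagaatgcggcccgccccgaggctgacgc
Pfkfb3, outer start (chr2:11553930-11554179, minus strand): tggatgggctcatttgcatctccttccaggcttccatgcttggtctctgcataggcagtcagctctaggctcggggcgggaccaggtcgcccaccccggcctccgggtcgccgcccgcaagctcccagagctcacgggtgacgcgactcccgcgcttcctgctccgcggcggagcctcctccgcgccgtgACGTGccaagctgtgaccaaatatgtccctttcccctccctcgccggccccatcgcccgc
Pfkfb2, the second start (chr1:130715822-130716071, minus strand): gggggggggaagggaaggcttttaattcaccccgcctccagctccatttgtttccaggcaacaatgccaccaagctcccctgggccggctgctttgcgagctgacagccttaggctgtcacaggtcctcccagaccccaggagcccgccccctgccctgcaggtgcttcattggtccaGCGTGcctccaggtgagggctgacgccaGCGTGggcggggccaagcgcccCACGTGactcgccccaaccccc
Pfkfb4 (chr9:108991652-108991901, plus strand): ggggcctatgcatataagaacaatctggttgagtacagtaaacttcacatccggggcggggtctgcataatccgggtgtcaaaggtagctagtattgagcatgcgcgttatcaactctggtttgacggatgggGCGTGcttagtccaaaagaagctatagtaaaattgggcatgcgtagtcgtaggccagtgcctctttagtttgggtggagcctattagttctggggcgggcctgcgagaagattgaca

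Peaks of 2 calls lay inside 4 of the 7 genes, Pfkl, Pfkm, Pfkp and Pfkfb3, with 1 such peak in each. Across all protein-coding genes, 4.84% held a peak of 2 calls, and 21.1% held any peak. All 3 catalytic isoforms held one, against 1 of the 4 regulators. When the 50 kb to either side were added, the count was again 4 of 7, against 21.4% of all protein-coding genes. The 7 genes are longer than most, with a median length of 44.0 kb against 17.2 kb for protein-coding genes, and a longer gene gives peaks more room. The part of gene length in these shares was not tested. With peaks of any kind counted, 5 of the 7 genes had a peak inside or within 50 kb, which is near the 64.8% of all protein-coding genes and so is no result about this group.

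**Figure D1:**
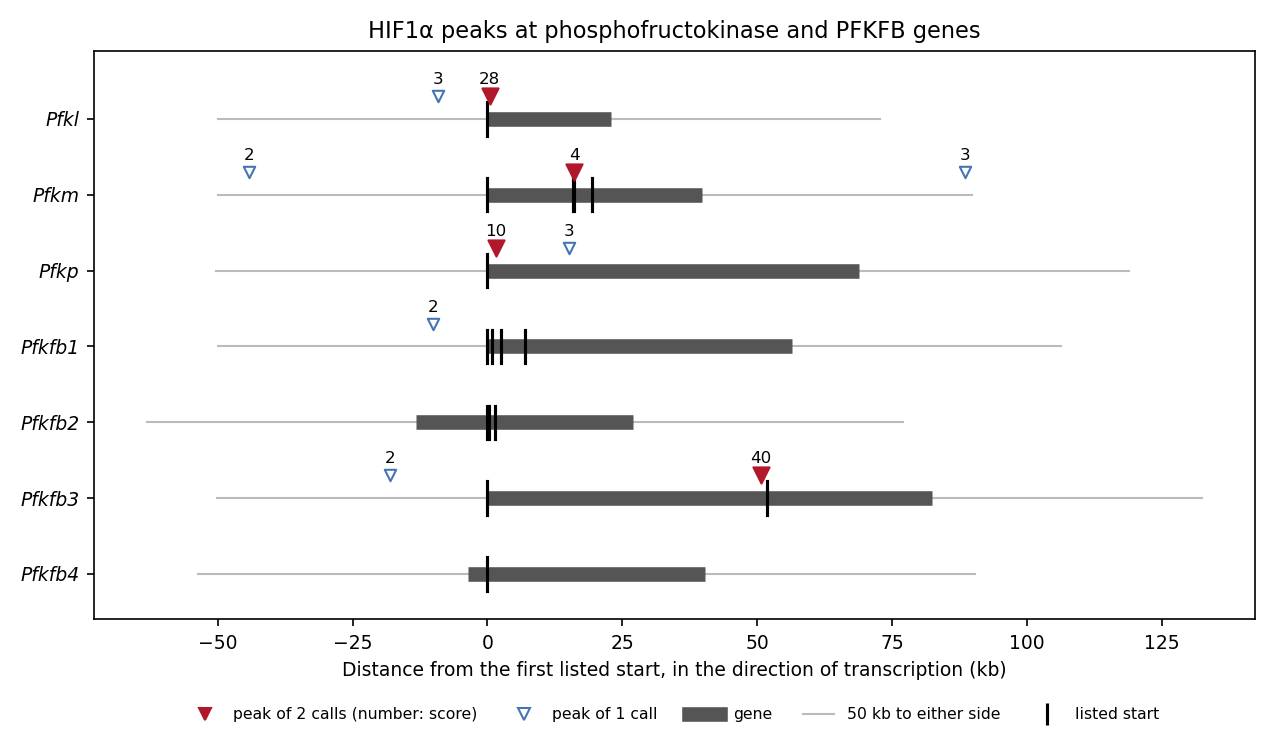
Position of every peak at the 7 genes, in kb from the first listed start in the direction of transcription (thick bar, gene; thin line, 50 kb to either side; tick, listed start; filled triangle, peak of 2 calls; open triangle, peak of 1 call; number, score). The 4 peaks of 2 calls all sit inside genes and close to a listed start, with scores of 28, 4, 10 and 40, and the windows of Pfkfb2 and Pfkfb4 are empty.

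Pfkl, the liver-type isoform (chromosome 10, 77986947 to 78009807, minus strand), had a peak of 2 calls at 78009344 to 78009454 that scored 28. Its centre lay 408 bp downstream of the single listed start, inside the gene. Of all peaks of 2 calls, 2.46% scored as high or higher. The only other peak in the window had 1 call and a score of 3, and lay 9261 bp upstream of the start in sequence outside any annotated gene. Pfkl was the nearest protein-coding gene to both peaks, although Trpm2, Cfap410, Aire and Dnmt3l also reach into the window.

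Pfkm, the muscle-type isoform (chromosome 15, 98092589 to 98132447, plus strand), had the lowest score among the peaks of 2 calls. That peak scored 4, the median of its kind, and 70.8% of peaks of 2 calls scored as high or higher. It spanned 173 bp, from 98108605 to 98108777, which is the widest of the 10 peaks. Pfkm has 4 listed starts, and the peak centre lay 135 bp downstream of the third and 220 bp downstream of the second. The first start was 16.1 kb away and the fourth 3369 bp away. The peak was therefore at an inner start of the gene, outside a 5 kb window around either gene end. By gene ends alone, the end nearest to this peak belongs to the neighbour Senp1, 15.1 kb away. The other 2 peaks in the window had 1 call each. The peak with a score of 2, 44.1 kb upstream, lay inside Senp1, a SUMO protease gene. The peak with a score of 3, 48.7 kb beyond the gene, lay inside the noncoding gene Gm33909, and its nearest protein-coding gene was Olfr288.

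Pfkp, the platelet-type isoform (chromosome 13, 6579874 to 6649060, minus strand), had a peak of 2 calls at 6647203 to 6647331 that scored 10. It lay 1504 bp downstream of the single listed start, farther inside the gene than the peaks of Pfkl and Pfkm lay from their nearest starts. Its score was reached by 9.9% of peaks of 2 calls. A second peak, of 1 call and with a score of 3, lay 15.1 kb downstream of the start, where Pfkp overlaps the noncoding gene Gm35730. Pfkp was thus the only one of the 7 genes with more than 1 peak inside it.

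Among the regulators, Pfkfb3 carried the highest score of the whole group. This gene (chromosome 2, 11471430 to 11554071, minus strand) is also the longest of the 7, at 82.6 kb. Its peak of 2 calls scored 40 at 11503237 to 11503347, a score that 1.51% of peaks of 2 calls reached. The centre lay 50.6 kb downstream of the outer start but 1202 bp upstream of the inner start, which is 51.8 kb from the outer one. It was the only one of the 4 peaks of 2 calls on the upstream side of its nearest start. The nearest end of the gene was 31.9 kb away. The noncoding gene Gm52500 also covers the peak (11502010 to 11506459), so the position alone does not tie it to Pfkfb3. The nearest start of any gene in the promoter table was the inner start of Pfkfb3. The other peak of the window, with 1 call and a score of 2, lay 18.2 kb upstream of the outer start and closer to an end of Rbm17 (13.4 kb), a splicing factor gene.

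The remaining regulators had no peak of 2 calls in their windows. For Pfkfb1 (chromosome X, 150587445 to 150643878, plus strand) the window held 1 peak, of 1 call and with a score of 2, at 150577277 to 150577377. That peak lay 10.1 kb upstream of the first of 4 listed starts and inside the neighbour Apex2, a DNA repair gene. The gene end nearest to it was that of Alas2, which encodes the erythroid enzyme of haem synthesis, 6705 bp away. The nearest peak of 2 calls to Pfkfb1 was 877 kb away, 118 bp from an end of Phf8, a histone demethylase gene.

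Pfkfb2, the isoform known from heart (chromosome 1, 130689043 to 130729253, minus strand), had no peak inside it or within 50 kb. The nearest peak was 127 kb away, with 1 call and a score of 2, and 3543 bp from Pigr. The nearest peak of 2 calls was 324 kb away, 191 bp from an end of Mapkapk2, a stress kinase gene. Pfkfb4 (chromosome 9, 108988272 to 109032236, plus strand) also had an empty window. Its nearest peak, of 1 call and with a score of 3, lay 65.8 kb away inside Plxnb1, a semaphorin receptor gene. The nearest peak of 2 calls was 409 kb away, 20.5 bp from an end of P4htm, which encodes a transmembrane prolyl hydroxylase. An empty window says that no peak was listed there under the authors' threshold, which is not given, and the signal below that threshold was not analysed here.

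The isoforms thus differed in score as well as in position. In falling order of the highest score in the window, the genes were Pfkfb3 (40), Pfkl (28), Pfkp (10), Pfkm (4) and Pfkfb1 (2, 1 call), with nothing listed for Pfkfb2 and Pfkfb4. With a single merged score per peak, no spread is known for any step in this order, and no step was tested. The 6 peaks of 1 call all scored 2 or 3, as did 91.8% of peaks of 1 call in the whole list. Of these 6, the peak upstream of Pfkl and the inner peak of Pfkp had the gene itself as their nearest protein-coding gene.

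**Figure D2:**
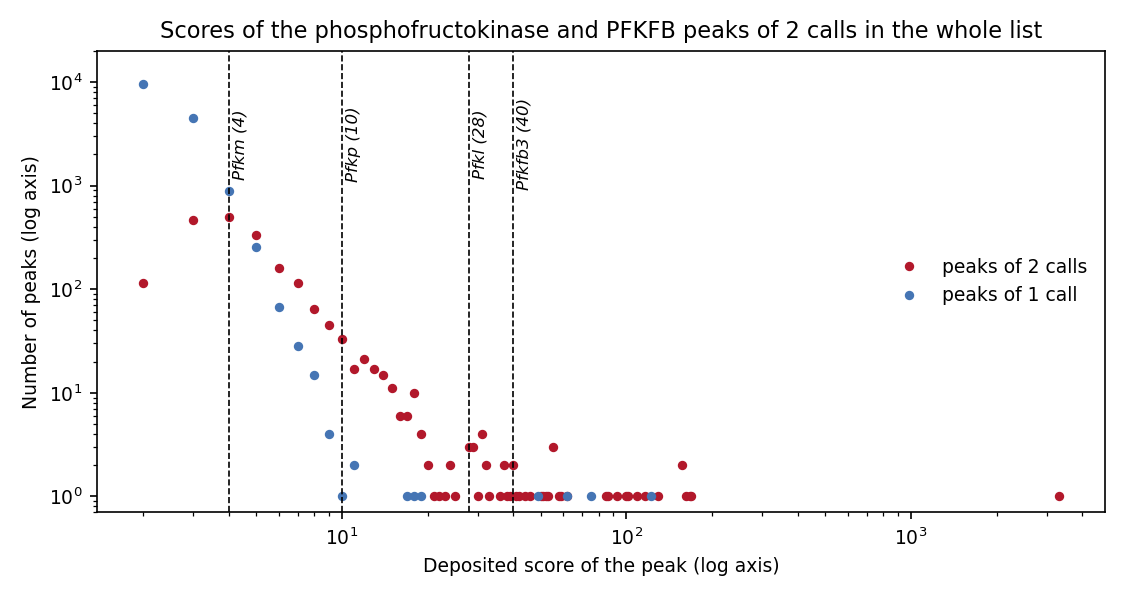
Number of peaks at each deposited score (both axes logarithmic) for peaks of 2 calls and of 1 call in the whole list, with dashed lines at the scores of the peaks of 2 calls in the 7 genes. Pfkfb3 (40) and Pfkl (28) lie in the sparse upper tail, while Pfkm (4) lies at the median of peaks of 2 calls.

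Position was then described against the listed starts in place of gene ends. The promoter table lists 16 starts for the 7 genes. Within 1 kb of a listed start, 2 of the 7 genes (Pfkl and Pfkm) had a peak, against 16.6% of the 17491 protein-coding genes with a listed start. With peaks of 2 calls only, the count within 1 kb was also 2 of the 7. Within 2 kb, 4 of the 7 genes had a peak of 2 calls, against 5.99% of those genes. Window and kind of peak both differ between the 16.6% and the 5.99%, so these shares are not on the same scale. A gene with several listed starts has more places at which a peak counts. The part of this in these shares was not tested. By gene ends, 2 of the 7 genes (Pfkl and Pfkp) had a peak within 5 kb, close to the 24.0% of all protein-coding genes. Both of these peaks had 2 calls, which 7.72% of all protein-coding genes had in that window. The measure by gene ends leaves out Pfkm and Pfkfb3, whose peaks sit at inner starts. All 4 peaks of 2 calls were within 2 kb of a listed start of their own gene, 3 of them downstream of it. Over all chromosomes with listed starts, 49.4% of peaks of 2 calls and 14.4% of peaks of 1 call lay within 2 kb of a listed start of a protein-coding gene. The table does not list every start: Pfkfb2 extends 13.2 kb and Pfkfb4 3.63 kb before the first start listed for it.

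**Figure D3:**
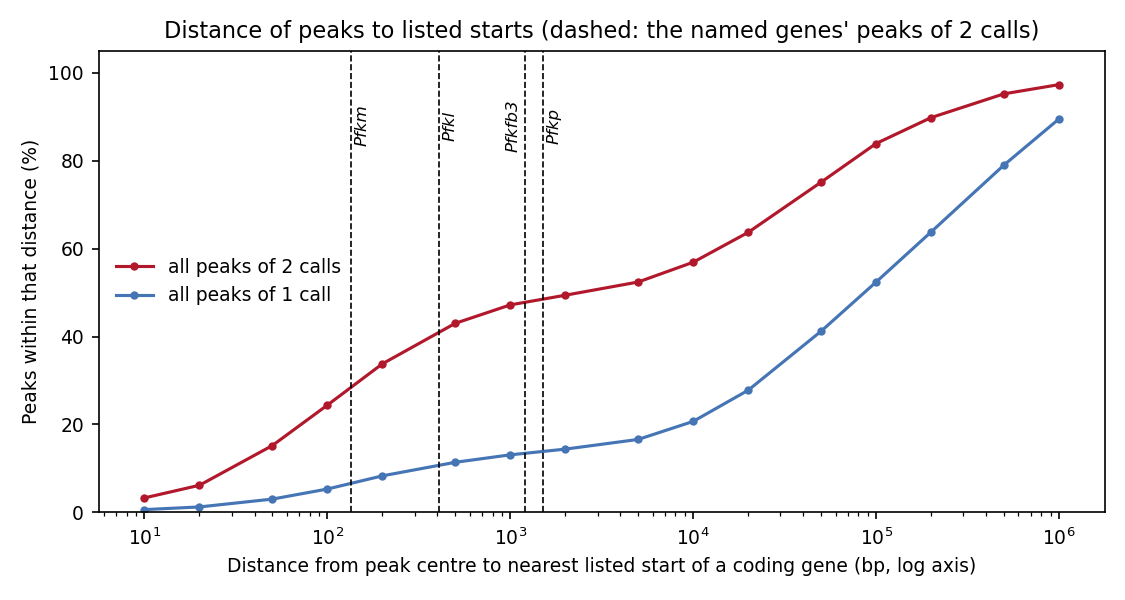
Share of all peaks of 2 calls and of 1 call whose centre lies within a given distance of a listed start of a protein-coding gene (logarithmic axis, bp), with dashed lines at the distances of the peaks of 2 calls in Pfkm, Pfkl, Pfkfb3 and Pfkp. The 4 distances run between 135 and 1504 bp, over the range in which the curve for peaks of 2 calls rises to 49.4% at 2 kb.

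The HIF core letters were counted in the 300 bases around each listed start (250 before and 50 from the start on, both strands). Of the 16 starts, 12 held at least 1 match (75.0%), against 43.8% of all 32851 listed promoters. Those promoters belong to 27025 genes, while 17491 protein-coding genes have a listed start. Shares of all listed promoters, here and below, are thus not of protein-coding genes alone, unlike the 16 starts. Starts that lie close together can share a match, which is then counted at each. The GCGTG at -149 to -145 of the second Pfkm start is also that at -234 to -230 of the third. Each of the 7 genes had a match at 1 or more of its listed starts, against 52.3% of the protein-coding genes with a listed start. Genes with several listed starts have more chances of a match, and Pfkfb1 had one at 1 of its 4 starts. ACGTG alone was found at 6 of the 16, against 19.6% of all listed promoters. Starts of the 4 genes with a peak of 2 calls held a match in 7 of 8 cases, and starts of the 3 genes without one in 5 of 8. The start without a match among the former belonged to Pfkm, and those among the latter all belonged to Pfkfb1. Starts of the same gene are not separate cases, and this difference was not tested. Pfkp, the inner start of Pfkfb3 and the second start of Pfkfb2 held 4 matches each, a number reached by 3.86% of listed promoters. The other listed starts of Pfkfb2, a gene whose nearest peak was 127 kb away, held 1 match each, as did the outer start of Pfkfb3. At the inner start of Pfkfb3 the matches ran from -122 to -118 and, as the palindrome CACGTG, from -53 to -48, with the fourth just after the start. At Pfkfb2 a CACGTG ran from -22 to -17. The start of Pfkl held a single GCGTG at -99 to -95, and that of Pfkfb4 one at -117 to -113. None of the 4 peaks of 2 calls reaches into the printed stretches, and their own sequence was not used here, so these matches describe the starts and not the peaks.

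**Figure D4:**
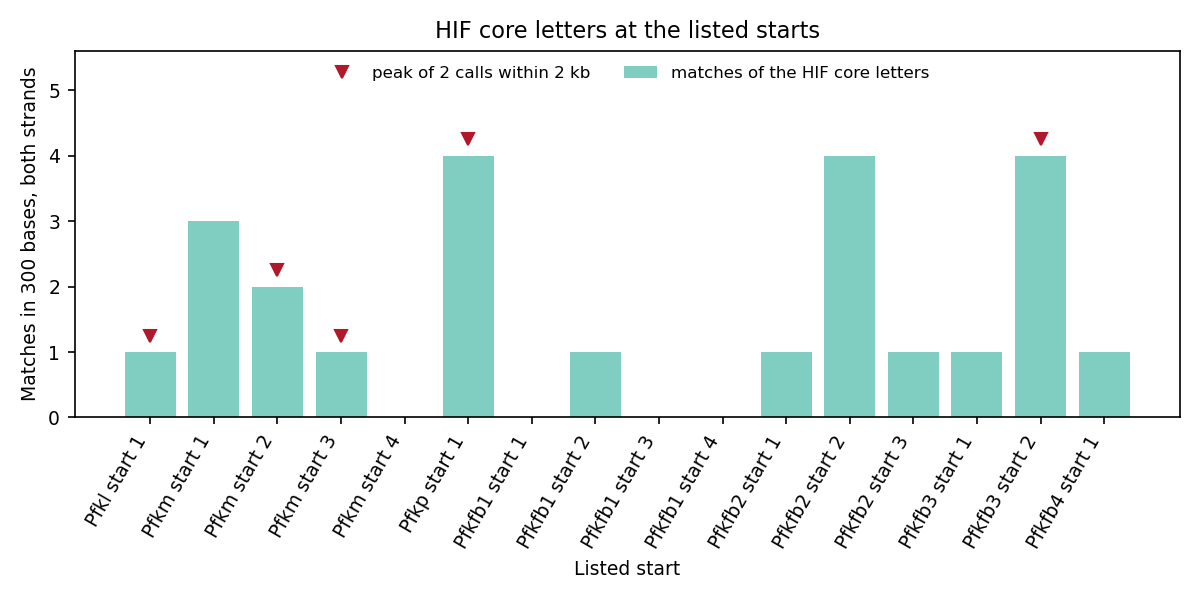
Matches of the HIF core letters in 300 bases around each of the 16 listed starts, both strands; triangles mark starts with a peak of 2 calls within 2 kb. Counts of 4 occur at Pfkp and the inner (second) start of Pfkfb3, which carry a triangle, and at the second start of Pfkfb2, which does not.

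Other genes of the pathway were set beside these 7. A peak of 2 calls lay inside or within 50 kb in 4 of the 7 genes and in 15 of 15 other glycolysis genes, against 21.4% of all protein-coding genes. This difference between the lists was not tested, and the lists were chosen with earlier results of these data known. For 12 of the 15, the highest such peak lay within 2 kb of a listed start, as it did for 4 of the 7 genes. A peak of 2 calls lay there in 5.99% of the protein-coding genes with a listed start. No distance to a start was available for Slc2a3, so it could not be counted. Any peak within 5 kb of a gene end was found for 2 of the 7 genes and for 13 of the 15, against 24.0% of all protein-coding genes. The 3 of the 15 with the shortest distance from a gene end to a peak were the aldolase gene Aldoc (18 bp), the phosphoglycerate mutase gene Pgam1 (98.5 bp) and the dehydrogenase gene Gapdh (146.5 bp). The highest score of a peak of 2 calls was 40 at Pfkfb3, the same as at the pyruvate kinase gene Pkm, and below the 109 of the enolase gene Eno1. The score of 4 at Pfkm equalled the highest in the windows of Eno3, the muscle enolase gene, and of the glucose transporter gene Slc2a3. Neither of these 2 genes had a peak of 2 calls within 5 kb of a gene end. The peak of Eno3 lay 10.3 kb from a listed start, while that of Pfkm was 135 bp from one. Of 3 genes whose products oppose phosphofructokinase (the fructose bisphosphatase genes Fbp1 and Fbp2, and Tigar), none had a peak of 2 calls in its window. Most protein-coding genes had none either. The windows of Fbp1 and Fbp2, both on chromosome 13, held the same single peak, of 1 call and with a score of 2, and that of Tigar held none.

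**Figure D5:**
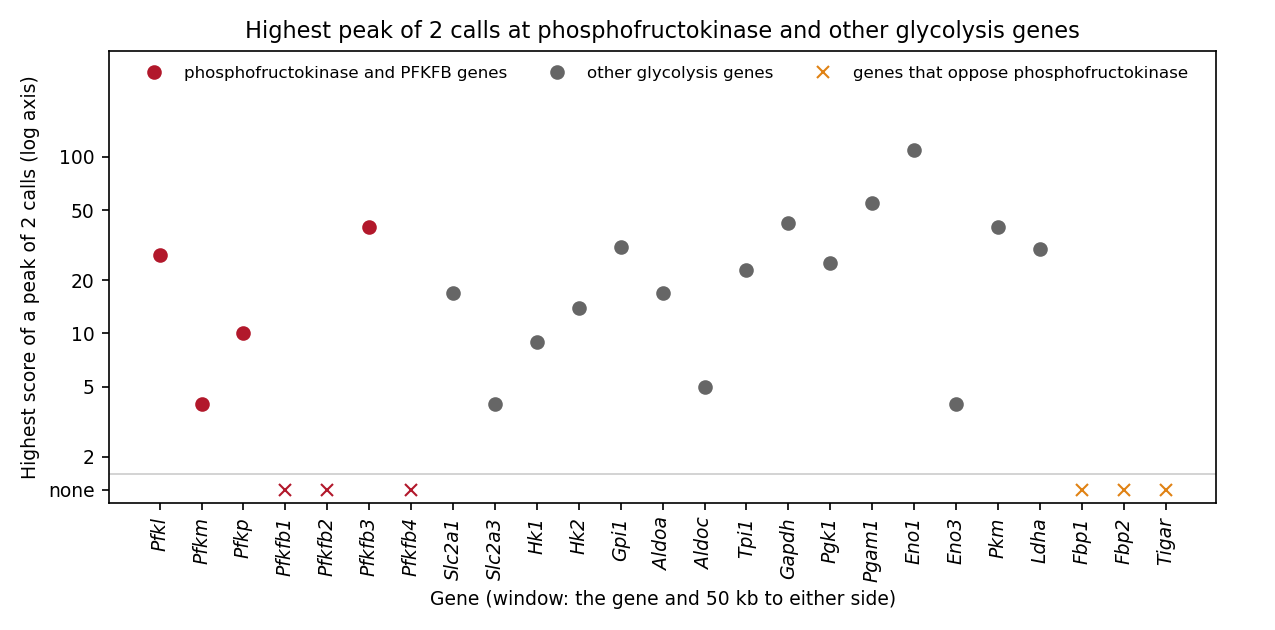
Highest score of a peak of 2 calls inside each gene or within 50 kb of it (logarithmic axis; crosses, no such peak) for the 7 phosphofructokinase and PFKFB genes, 15 other glycolysis genes and 3 genes that oppose phosphofructokinase. Pfkfb1, Pfkfb2 and Pfkfb4 stand at none, as do the opposing genes, while each of the 15 other glycolysis genes has a peak. Such a peak was listed for 21.4% of all protein-coding genes, so none is the usual state. The lists were chosen with earlier results of these data known.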

How the data were processed

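The labels describe hearts at E12.5 cross-linked with 1.5% formaldehyde, chromatin of about 200 bp and 4 μg of an antibody against HIF1α. Bowtie2 and HOMER were used with mm10, per the submitters' processing notes. The authors called peaks in each pulldown over the input and merged both sets, with a score per merged peak, per the file headers. The calling threshold, tool versions and merge rule are not stated there. The last number of a peak's name was read as its number of merged calls.

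Peak centres were placed against genes and listed starts of RefSeq tables (GRCm38.p6) with Python 3.11.15, pandas 2.3.3 and numpy 2.4.6. The gene table gives no exons, so exon, intron and UTR are not resolved. Mitochondrial genes were left out, as were genes annotated at under 3 Mb (except on Y), which belong to unplaced sequence. The window counts and the motif count were tested on simulated peaks and sequences. All 7 genes were named, with every peak of 2 calls or a score of at least 4 given singly. Members and lists were chosen with earlier results of these data known, so shares are descriptions and no test was run. Alternatives covered windows, score minimums, calls, overlap and assignment.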

Additional observations from a re-analysis of the deposited data

How the results depend on the processing

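Each count was recomputed under 55 alternatives in all, and 46 stayed within 1.5 times the value given. The 4 genes with a peak of 2 calls stayed at 4 under every alternative tried but 1. In that alternative, chosen after seeing the data, a peak counts only for the gene with the nearest end. There the count was 3, as Pfkm was dropped. The 4 peaks lie inside their genes with scores of at least 4. Smaller windows, the score minimums, overlap by any base and assignment to the nearest protein-coding gene therefore could not lower this count. A wider window could only raise it. The same holds for the number of these peaks, which was counted separately. Assignment by the nearest listed start of any gene, also chosen after seeing the data, could have lowered the count of genes and left it at 4. The number of genes with a peak within 5 kb of an end was 1 at 1 kb and 4 with peaks inside the gene counted too, in place of 2. With 2 kb around a listed start in place of 1 kb, 4 genes had a peak. The 10 peaks became 5 with a window of 5 kb, 16 with a window of 100 kb, 4 at scores of at least 4, 4 with peaks of 2 calls only, and 6 with only peaks whose nearest protein-coding gene is the member. Starts with a core motif were 6 with ACGTG alone, in place of 12. No paired analysis was possible because the list gives no value per pulldown, and for the same reason neither pulldown could be left out. The authors' calling threshold, the read depth and the input signal limit what an empty window can show.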

Other observations

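The protein-coding genes most like Pfkfb3 in their peaks were looked up by the number of peaks of 2 calls inside or within 50 kb, then by the highest score, then by length, over the 1 merged list. Pfkfb3 shares its number of such peaks with Pfkl, Pfkm and Pfkp and was taken among them for its score, after the values were seen. Exactly 1 peak of 2 calls was listed for 17.2% of all protein-coding genes. The closest 3 were Celf6, with a highest score of 40, and Kmt2a and Ube4a, with a highest score of 41 each. Kmt2a and Ube4a share that peak. The peak of Celf6 is the one with a score of 40 at Pkm, 60.5 bp from a listed start of Pkm.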
